A study of Mus musculus with 24 samples.

Results

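The promoter fragments of the keratin and keratin-associated genes were followed through 24 promoter capture Hi-C libraries of mouse cranial neural crest cells. A captured HindIII fragment (a bait) was counted as a keratin bait when it held, or lay within 1 kb of, an annotated mm10 end of a gene whose symbol is Krt followed by a digit, or Krtap. Of 111 such genes, 96 lay on a bait, and they gave 99 of the 22203 baits of the series. Chromosome 11 held 50 of the baits within 1044.9 kb, chromosome 15 held 26 within 662.3 kb, chromosome 16 held 18, chromosome 7 held 3 and chromosome 10 held 2. Keratin genes shared a bait in 11 cases, which are written with a slash (Krt17/Krt42), and 19 of the 99 baits also carried the end of a gene of another kind. Krt10, Krt6b and 13 further keratin genes had no bait by this rule and were not analysed here.

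The libraries came from 12 groups of 2, all mouse and all labelled cranial neural crest cells. One group was wild-type (WT) progenitors at embryonic day 8.5 (E8.5). At E11.5, the tissues labelled FNP, Mx, Md and PA2 each gave a WT group and a group labelled Ezh2cKO, a conditional knockout of Ezh2. Md and PA2 also gave a group with the genotype Hoxa2PTE-36kb-del, and PA2 a group with Hoxa2PTE-42kb-del. Ezh2 encodes the catalytic subunit of Polycomb repressive complex 2, which methylates lysine 27 of histone H3. Cells of Wnt1::Cre;ROSARFP and Ezh2cKO embryos were collected by fluorescence sorting per the labels' protocol. Not given in the sources used here: whether the deletion embryos' cells were sorted, which Cre drove the Ezh2 knockout, where the deletions lie, and the strain backgrounds. The replicates are labelled as biological, except in the deletion group that PA2 alone gave, whose titles only number them. The labels do not say which embryos or litters the replicates came from, so the p-values measure the spread between these libraries. The assay reports contacts of promoters, not RNA, so the labelled cell type could not be checked by marker expression.

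Keratins are the intermediate filament proteins of epithelial cells. A filament is built from obligate pairs of an acidic type I and a basic type II keratin. In the mouse the type I genes lie together on chromosome 11, interrupted by a block of keratin-associated protein (Krtap) genes for the hair matrix, and the type II genes lie together on chromosome 15 with the type I gene Krt18 at their edge. Pairs mark cell states: Krt8 with Krt18 in simple epithelia, Krt5 with Krt14 in the basal layer of stratified epithelia, Krt6a with Krt16 in wounded skin, Krt71 to Krt74 with Krt25 to Krt28 in the inner root sheath of the hair follicle. Neural crest mesenchyme carries vimentin filaments instead, and keratin genes are not known as its products.

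Each deposited list gave pairs of fragments with a score of at least 5, and a library held 142284 to 190343 such interactions, the deletion groups the fewest. The unit used throughout is the number of interactions with a partner on the same chromosome (cis) in which a keratin bait stood first, set against the library's total of cis interactions. The read depth behind an interaction is unknown, so no interval for counting error is given. A bait was tested when it averaged at least 5 cis interactions, which 74 of the 99 keratin baits did (46 of 50 on chromosome 11, 26 of 26 on chromosome 15, 1 of 18 on chromosome 16, 1 of 3 on chromosome 7 and 0 of 2 on chromosome 10), as did 9178 of all baits. Baits of one cluster share partners and are not independent observations. Several Krtap genes, and Krt6a with Krt6b, are near-identical copies whose reads can be hard to place, so values of those baits are uncertain.

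The promoters of 4 keratin genes show the spread of sequence among the baits described below. Krt42 stood at the edge of the chromosome 11 cluster and had more interactions at E11.5 than at E8.5, Krt36 had fewer in both deletion groups, Krt73 had more in Ezh2cKO, and Krt18 passed no test. Each line gives the 250 bases before the start site from RefSeq's GRCm38.p6 table, 5′ to 3′, and the capitals mark CG pairs and the motif TATAAA (searched on both strands, no overlap with CG).
Krt42 (chr11:100269952-100270201, minus strand): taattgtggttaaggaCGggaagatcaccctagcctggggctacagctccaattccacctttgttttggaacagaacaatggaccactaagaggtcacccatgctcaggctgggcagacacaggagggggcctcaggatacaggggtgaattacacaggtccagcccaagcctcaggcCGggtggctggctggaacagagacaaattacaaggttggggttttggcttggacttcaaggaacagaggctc
Krt36 (chr11:100105627-100105876, minus strand): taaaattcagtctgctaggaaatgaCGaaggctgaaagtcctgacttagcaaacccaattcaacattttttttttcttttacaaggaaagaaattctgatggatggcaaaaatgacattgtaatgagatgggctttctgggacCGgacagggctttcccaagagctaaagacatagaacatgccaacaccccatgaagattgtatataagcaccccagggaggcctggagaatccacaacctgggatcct
Krt73 (chr15:101802361-101802610, minus strand): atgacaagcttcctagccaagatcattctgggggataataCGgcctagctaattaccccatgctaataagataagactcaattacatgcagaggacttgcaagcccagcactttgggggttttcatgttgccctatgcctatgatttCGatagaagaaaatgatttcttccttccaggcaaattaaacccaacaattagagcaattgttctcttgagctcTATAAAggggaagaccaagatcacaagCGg
Krt18 (chr15:102027966-102028215, plus strand): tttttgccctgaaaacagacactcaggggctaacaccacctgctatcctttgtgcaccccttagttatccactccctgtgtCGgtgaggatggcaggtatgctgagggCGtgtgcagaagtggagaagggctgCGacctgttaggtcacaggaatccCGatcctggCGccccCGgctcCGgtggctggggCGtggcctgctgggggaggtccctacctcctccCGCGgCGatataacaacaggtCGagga
Of these, TATAAA stood in the Krt73 promoter alone, with its first base 30 bases before the start. The Krt18 promoter held 12 CG pairs, against 3 in Krt73 and 2 in Krt36 and in Krt42. RefSeq's table listed 88 promoter windows (300 bases, from 250 before to 50 after the start) for 87 keratin genes, and 76 of the start sites lay in a keratin bait. TATAAA on either strand was found in 78.6% of the 42 windows of chromosome 11 and in 37.5% of the 16 of chromosome 15, against 13.6% of 32851 windows in all. The median number of CG pairs was 3 on chromosome 11 and 6 on chromosome 15, against 7 over all windows. These are matches of letters and say nothing of binding.

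Keratin promoters of the 2 clusters held more interactions than the usual bait, and the chromosome 16 Krtap promoters fewer. The median keratin bait averaged 14.6 cis interactions per library on chromosome 11 and 15.0 on chromosome 15, against 0.5 on chromosome 16 and 3.67 over all 22203 baits. On chromosome 11 the most interacting baits were Krtap16-1, a hair matrix protein gene (mean 44.9 per library), Krt17/Krt42 (43.1), Krt23 (41.7), Krt42 (41.2) and Krt9, a keratin of palm and sole skin (34.1). On chromosome 15 they were Krt78 (32.5), the inner root sheath gene Krt74 (32.5), its neighbour Krt72 (28.2), Krt78/Krt8 (22.2) and Krt82/Krt90 (20.7). These counts are per bait and not per length, and a bait's length and capture were not corrected for. Where both fragments were baits, 87.9% of cis interactions listed the higher coordinate first. Such interactions thus mostly counted for the bait further right in a cluster, such as Krt17/Krt42 and Krt42. Krtap16-1 varied little in count, with 42 to 46 interactions in the 8 E11.5 WT libraries and 39 to 46 in the 8 Ezh2cKO libraries. The basal pair had 29 to 47 interactions at Krt14 and 3 to 14 at Krt5 in the E11.5 WT libraries. The simple epithelial pair had 20 to 30 at the bait shared by Krt78 and Krt8 and 5 to 12 at Krt18.

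**Figure D1:**
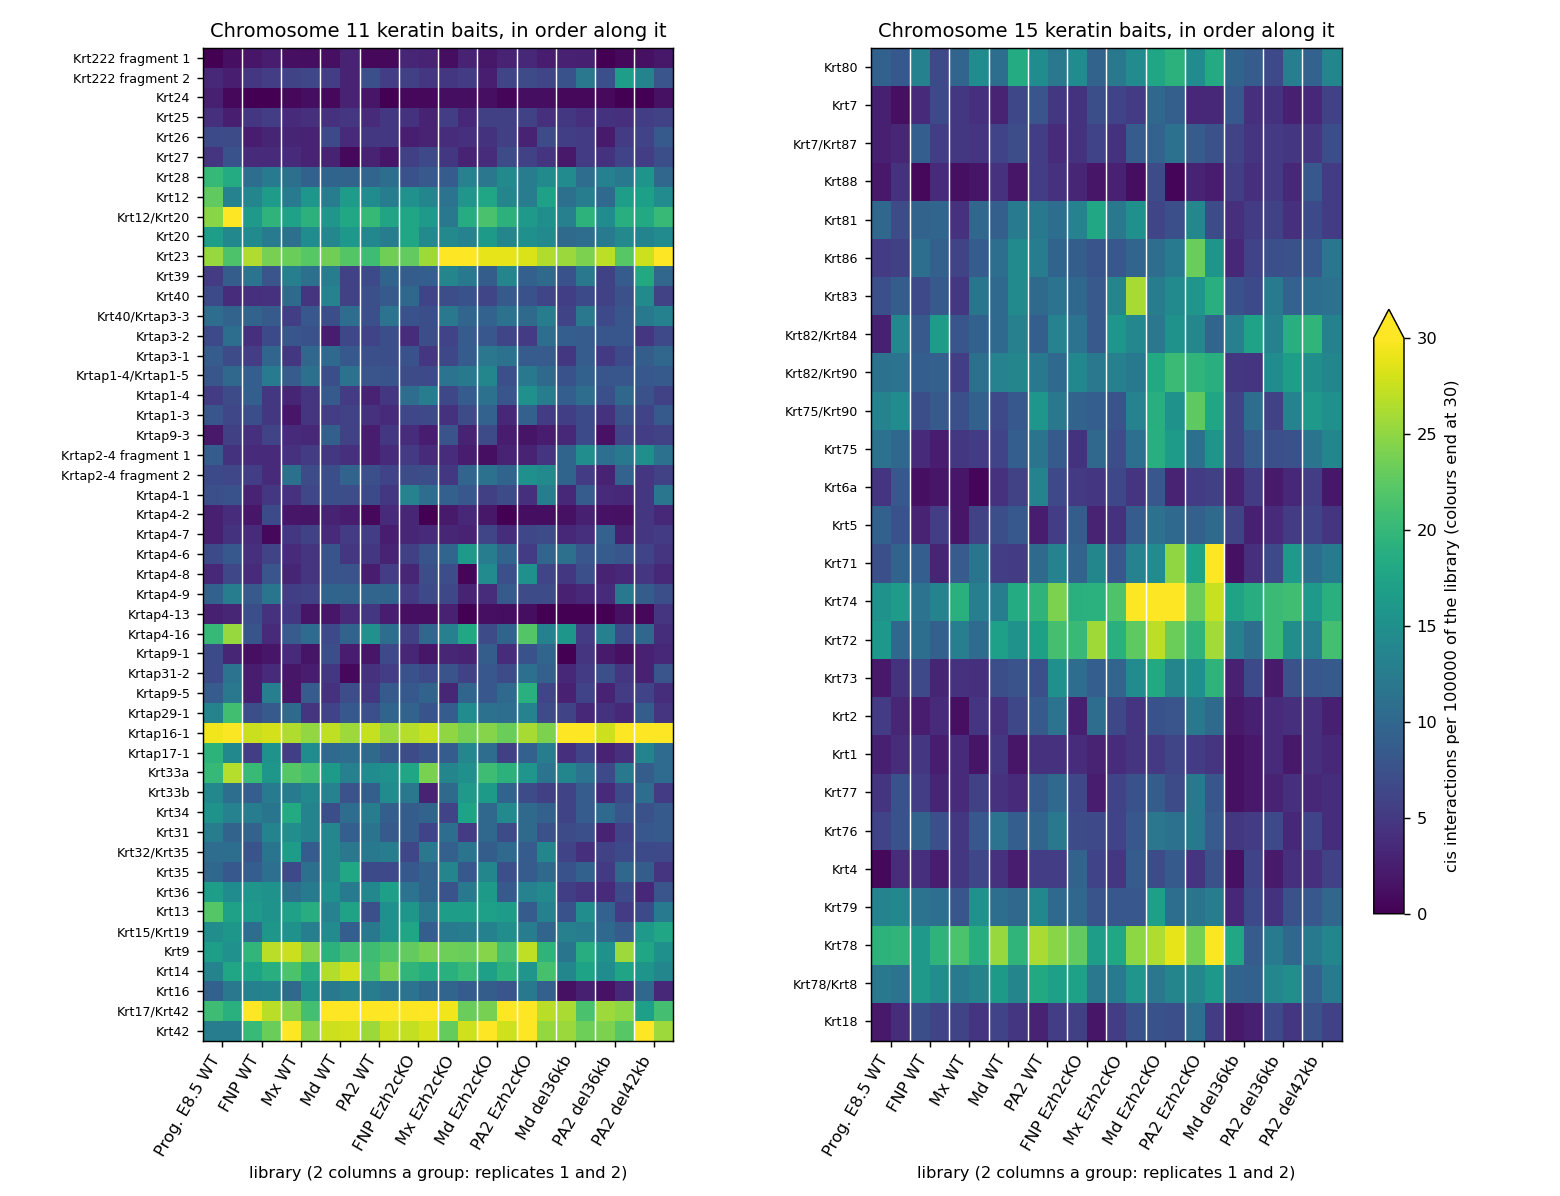
Cis interactions of each keratin bait per 100000 cis interactions of its library, for the baits of chromosome 11 (left, 50 baits) and chromosome 15 (right, 26 baits) in chromosomal order, with 2 columns (replicates) per group. Krt23, Krtap16-1, Krt17/Krt42 and Krt42 are bright in nearly every library, and on chromosome 15 the rows from Krt71 to Krt73 are brighter in the Ezh2cKO columns.

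The 2 clusters took different courses across the groups. The chromosome 11 baits held 0.561% ± 0.0076 (SD, n = 2) of a library's cis interactions at E8.5, 0.505% ± 0.020 (n = 8) in E11.5 WT, 0.529% ± 0.033 (n = 8) in Ezh2cKO and 0.437% ± 0.039 (n = 4) in the 36kb deletion. The chromosome 15 baits held 0.210% ± 0.015 (n = 2), 0.230% ± 0.041 (n = 8), 0.308% ± 0.053 (n = 8) and 0.190% ± 0.027 (n = 4) in the same order. Both E8.5 libraries lay above all 8 E11.5 WT libraries for chromosome 11 and within their range for chromosome 15. No test was run on these sums, because the members were chosen with earlier results of these data known.

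Within E11.5 WT, the tissue means spanned a wider range, relative to their level, for chromosome 15 than for chromosome 11. For chromosome 15 the FNP libraries had 0.201% and 0.193%, those of Mx 0.177% and 0.216%, those of Md 0.232% and 0.251%, and those of PA2 0.285% and 0.287%, so that the PA2 libraries stood above the other 6. For chromosome 11 the group means ran only from 0.494% in PA2 to 0.522% in Md. In Ezh2cKO the chromosome 15 share averaged 0.249% (FNP), 0.280% (Mx), 0.351% (Md) and 0.353% (PA2). In each of the 4 tissues both Ezh2cKO libraries lay above both WT libraries of that tissue. On chromosome 11 the Ezh2cKO means were 0.494%, 0.521%, 0.547% and 0.553% in the same order, and in FNP, Mx and Md the libraries overlapped with WT. The Ezh2cKO libraries had 164248 to 190343 interactions in all, against 168670 to 176164 in E11.5 WT. Of these, 5899 to 7927 were with another chromosome in Ezh2cKO, against 4983 to 5726 in WT. The part of either difference in these shares was not tested.

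In the 36kb deletion both clusters sat below their controls. For chromosome 15 the 36kb deletion libraries had 0.163% and 0.175% in Md and 0.199% and 0.223% in PA2, all below the 4 WT libraries of Md and PA2 (0.232% to 0.287%). For chromosome 11 they had 0.417% and 0.474% in Md and 0.392% and 0.464% in PA2, again below the 4 WT libraries (0.482% to 0.529%). The 42kb deletion libraries had 0.232% and 0.245% for chromosome 15, below the PA2 WT libraries, and 0.514% and 0.489% for chromosome 11, overlapping with the PA2 WT libraries (0.482% and 0.506%). The deletion libraries also had fewer interactions in all (142284 to 158363) than the E11.5 WT libraries (168670 to 176164), and the part of that in these shares was not tested.

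**Figure D2:**
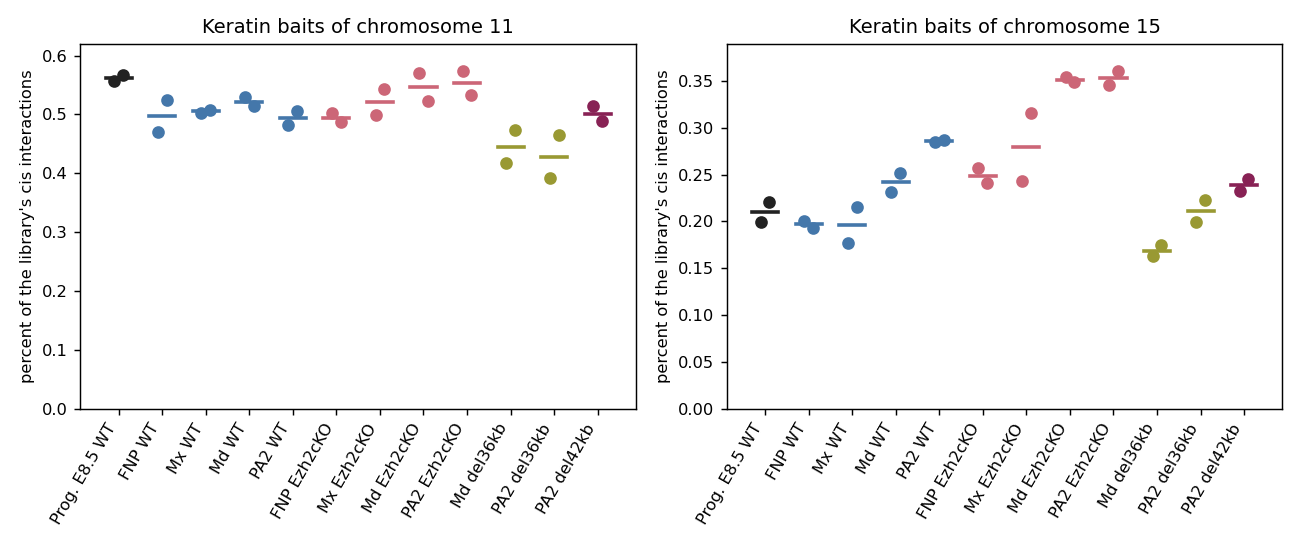
Percent of a library's cis interactions that started at a keratin bait of chromosome 11 (left) or chromosome 15 (right). Each point is 1 library, bars are the means of the 2 libraries of a group, and both axes start at 0. On chromosome 15 the Ezh2cKO points lie above the WT points of the same tissue, and the 36kb deletion points below.

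Between E8.5 and E11.5 baits at the right edge of the chromosome 11 cluster gained interactions, while Krt27, Krt28 and 3 Krtap baits lost them. Of the 74 keratin baits tested, 7 were higher and 7 lower in E11.5 WT than in the E8.5 progenitors (limma on log2 shares, Benjamini-Hochberg adjusted over all 9178 baits). That is 9.46% in each direction, where 20.2% of all baits were higher and 9.47% lower. The median log2 change was -0.20 over the 46 baits of chromosome 11 and 0.11 over the 26 of chromosome 15, against 0.07 over all baits.

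Krt42, which encodes a type I keratin and forms the last bait of the cluster (chromosome 11, 100265991 to 100270427), had 19 and 20 interactions in the E8.5 libraries. In the 8 E11.5 WT libraries it had 34 to 50 (median 44.0), a rise by 1.00 ± 0.14 (SE) on the log2 scale (limma, adjusted p = 2.18e-05), and the groups did not overlap. The neighbouring bait of Krt17, a keratin of appendages and wounds, and Krt42 rose by 0.52 ± 0.15 (30 and 31 against 36 to 55; limma, adjusted p = 0.0116). Krt14 rose by 0.49 ± 0.16 (20 and 28 against 29 to 47; limma, adjusted p = 0.0258), with overlap once set against the library totals.

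On the other side of the cluster, Krt28, an inner root sheath keratin, had 30 and 29 interactions at E8.5 and 16 to 20 (median 17.0) in E11.5 WT. It fell by 0.87 ± 0.20 on the log2 scale (limma, adjusted p = 0.00234), without overlap. Its neighbour Krt27 fell by 1.15 ± 0.42 (7 and 12 against 1 to 6; limma, adjusted p = 0.0448), and the bait of the corneal gene Krt12 and the intestinal gene Krt20 by 0.63 ± 0.18 (37 and 49 against 26 to 33; limma, adjusted p = 0.0131). The other falls lay in the Krtap block. Krtap31-2 fell by 1.58, Krtap4-16 by 1.38 and Krtap29-1 by 1.12 (limma, adjusted p = 0.0129, 0.0109 and 0.0141), each without overlap between the groups. Krt25 (0.42 ± 0.28) and Krt26 (-0.83 ± 0.34), the remaining type I genes of the inner root sheath, did not pass (limma, adjusted p = 0.275 and 0.0711).

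On chromosome 15, 3 baits of 26 rose and 1 fell. Krt7, a keratin of simple and glandular epithelia, had 4 and 2 interactions at E8.5 and 5 to 13 (median 8.00) in E11.5 WT, a rise by 1.27 ± 0.37 (limma, adjusted p = 0.013). The bait of Krt7 and the hair keratin Krt87 rose by 0.87 ± 0.28 (4 and 5 against 6 to 15; limma, adjusted p = 0.0243). The hair shaft keratin Krt86 rose by 0.82 ± 0.24 (8 and 9 against 10 to 24; limma, adjusted p = 0.0122). Krt75, a keratin of the hair follicle's companion layer, fell by 0.86 ± 0.27 (17 and 16 against 4 to 19; limma, adjusted p = 0.0212). The basal keratin Krt5 had 14 and 12 interactions at E8.5 and 3 to 14 in E11.5 WT (log2 change -0.89 ± 0.42; limma, adjusted p = 0.126). The largest rise of any keratin bait was on chromosome 7, at Krtap5-4, with 1 and 4 interactions at E8.5 and 4 to 22 (median 14.0) in E11.5 WT (log2 change 2.19 ± 0.34; limma, adjusted p = 5.68e-05).

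The E8.5 group had only 2 libraries, and the stage calls leaned on each. These libraries also had fewer interactions in all (154922 and 163148) than the 8 E11.5 WT libraries (168670 to 176164), and the part of that was not tested. Without E8.5 replicate 1, 7 keratin baits were called, and without replicate 2, 6 were, against 14 with both, and only Krt42, Krt28 and Krtap5-4 were called whichever library was left out. Counting a bait at either end ended the call of Krt7 (0.80; limma, adjusted p = 0.0828) and gave a call at Krt26 (-0.76, limma, adjusted p = 0.0441).

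In Ezh2cKO, all keratin baits that passed moved upward, and most of them lay in the middle of the chromosome 15 cluster. Of 74 tested, 13 were higher than in WT and 0 lower, or 17.6% and 0%, against 5.08% higher and 4.85% lower among all 9178 baits (limma with the 4 tissues weighted equally, n = 8 against 8). The 13 were 8 of 26 baits on chromosome 15 and 5 of 46 on chromosome 11. At an unadjusted p under 0.05, 28.4% of the keratin baits and 24.7% of all baits differed. By cluster it was 46.2% on chromosome 15 and 19.6% on chromosome 11, the latter below the share of all baits. The median log2 change was 0.39 on chromosome 15, where 22 of 26 values were above 0. It was 0.08 on chromosome 11, where 27 of 46 were, and 0.02 over all baits. By role, 5 of the 8 inner root sheath baits rose, 2 of 17 hair shaft baits, 2 of 6 wound and appendage baits, 3 of 23 keratin-associated baits, 1 of 8 simple epithelial baits, 2 of 6 baits with no role listed, and none of 3 basal, 7 mucosal and corneal or 4 suprabasal and volar baits. A bait shared by genes of different roles counts under each.

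The type II inner root sheath genes stand side by side, and the baits of all 4 rose. Krt73 (chromosome 15, 101799295 to 101802600) had 11, 5, 7, 7, 12, 13, 12 and 25 interactions in the WT libraries of FNP, Mx, Md and PA2, 2 libraries each. In Ezh2cKO it had 17, 15, 18, 25, 29, 24, 26 and 34, a rise by 1.06 ± 0.25 (limma, adjusted p = 0.00883). By count, both Ezh2cKO libraries were above both WT libraries in each of the 4 tissues, by the least in PA2. In PA2 the genotypes overlapped once set against the library totals, and they also overlapped when tissues were pooled.

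Krt71 had 5 to 22 interactions (median 14.5) in WT and 15 to 60 (median 23.0) in Ezh2cKO, a rise by 0.98 ± 0.25 (limma, adjusted p = 0.0153). Its change was 0.05 in Mx and 1.04 to 1.76 in the other tissues (SE 0.50 each). Krt72 had 15 to 35 (median 23.5) in WT and 32 to 45 (median 40.0) in Ezh2cKO, a rise by 0.71 ± 0.13 (limma, adjusted p = 0.00146). Krt74 had 19 to 40 (median 26.5) and 30 to 55 (median 44.0), a rise by 0.64 ± 0.11 (limma, adjusted p = 0.00103). The changes at Krt72 and Krt74 were smallest in PA2, at 0.24 ± 0.27 and 0.22 ± 0.23.

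The other 4 rises on chromosome 15 were at baits between 101489149 and 101576490, separated from Krt71 by Krt6a and Krt5, which did not pass. Krt75 had 4 to 19 interactions in WT and 7 to 30 in Ezh2cKO, a rise by 0.87 ± 0.17 (limma, adjusted p = 0.00259). The bait of the hair keratin Krt82 with Krt90 rose by 0.61 ± 0.12 (9 to 23 against 20 to 36; limma, adjusted p = 0.00326), the bait of Krt75 with Krt90 by 0.55 ± 0.17 (adjusted p = 0.0447) and the hair keratin Krt83 by 0.59 ± 0.17 (adjusted p = 0.0311). The epidermal neighbours had changes above 0 that did not pass, among them Krt5 (0.74 ± 0.27; limma, adjusted p = 0.0871), Krt6a (0.70 ± 0.28; 0.119), Krt4 of internal mucosa (0.66 ± 0.30; 0.175) and Krt1 of suprabasal skin (0.42 ± 0.24; 0.305). At the cluster's end Krt18 (0.14 ± 0.23; limma, adjusted p = 0.753) and Krt78/Krt8 (-0.11 ± 0.11; 0.577) lay near 0.

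On chromosome 11 the largest Ezh2cKO change was at Krtap31-2, with 1 to 9 interactions (median 5.00) in WT and 10 to 19 (median 12.5) in Ezh2cKO. It rose by 1.40 ± 0.29 (limma, adjusted p = 0.00368), with no overlap between the 8 and 8 libraries. Krtap1-4 rose by 0.99 ± 0.17 (5 to 15 against 12 to 26; limma, adjusted p = 0.000797) and Krtap4-6 by 0.89 ± 0.18 (5 to 13 against 9 to 28; adjusted p = 0.00349). Krt27 rose by 0.89 ± 0.27 (1 to 6 against 5 to 12; limma, adjusted p = 0.039) and Krt23, a keratin of simple epithelia, by 0.27 ± 0.08 (34 to 44 against 36 to 59; adjusted p = 0.0466). Krt14 (-0.21), Krt17/Krt42 (-0.01) and Krt42 (0.11) did not pass.

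Krt27, Krt75 and Krtap31-2 were called in the stage comparison with the opposite sign; both comparisons use the same 8 WT libraries. Of the 13 rises, 9 were called whichever library was left out and in every other setting in which they were tested. Of these 9, Krt82/Krt90, Krt74 and Krt72 were tested in all 10 other settings. The rest were tested in 8 or 9 and fell under the filter in the others. Krt27, Krt23, Krt83 and Krt75/Krt90 did not hold throughout, and Krt23 lost its call with any one of the 16 libraries left out. An F test of whether the Ezh2cKO change differed between tissues called 0 of the 74 keratin baits (limma; 2 at an unadjusted p under 0.05).

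In the 36kb deletion, 13 of the 74 keratin baits fell and 4 rose against WT Md and PA2, or 17.6% and 5.41%, where 5.10% of all baits fell and 4.63% rose (limma, n = 4 against 4). All 6 calls on chromosome 15 were falls, and chromosome 11 had 7 falls and 4 rises. The median log2 change was -0.47 over the 26 chromosome 15 baits and -0.24 over the 46 of chromosome 11, against 0.02 over all baits. By role, 5 of 17 hair shaft baits fell, 2 of 6 wound and appendage baits, 2 of 7 mucosal and corneal baits, 1 of 4 suprabasal and volar baits, 1 of 3 basal baits, 2 of 23 keratin-associated baits, and 0 of 8 in both the simple epithelial and the inner root sheath group. Values were below 0 in 16 of 17, 6 of 6, 7 of 7, 4 of 4, 3 of 3, 13 of 23, 7 of 8 and 4 of 8, in the same order.

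The largest fall was at Krt16 (chromosome 11, 100248152 to 100254791), the type I partner of the wound keratins. It had 20 and 22 interactions in WT Md, 21 and 19 in WT PA2, and 2, 4, 2 and 5 in the 4 deletion libraries. It fell by 2.38 ± 0.29 on the log2 scale (limma, adjusted p = 8.41e-05), far outside the WT range. Krt36, a hair keratin, had 25, 21, 23 and 28 in WT and 8, 7, 5 and 10 in the deletion, a fall by 1.46 ± 0.25 (limma, adjusted p = 0.00151). Among nearby hair keratin baits, Krt32/Krt35 fell by 1.12 and Krt31 by 0.88 (limma, adjusted p = 0.00655 and 0.0381). Krt35 (-0.38) and Krt34 (-0.24) did not pass (limma, adjusted p = 0.396 and 0.61).

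Krt14 fell by 0.65 ± 0.14 (44, 47, 35 and 40 in WT against 20, 26, 20 and 26; limma, adjusted p = 0.0087), without overlap. Krt15/Krt19, the bait of a basal and a simple epithelial keratin a short way off, had a change of -0.16 ± 0.20 (limma, adjusted p = 0.678). The mucosal keratin Krt13 had -0.51 ± 0.26 (limma, adjusted p = 0.216). In the Krtap block Krtap17-1 fell by 1.18 and Krtap4-9, whose libraries overlapped with WT, by 1.02 (limma, adjusted p = 0.0234 and 0.0443), while the first of the 2 Krtap2-4 fragments rose by 1.61 ± 0.29 (8, 7, 4 and 6 in WT against 14, 22, 15 and 18; limma, adjusted p = 0.00219). Its second, adjoining fragment had a change of -0.24, and of -0.63 with a bait counted at either end (limma, adjusted p = 0.0357). Krtap4-6 (0.84), Krtap1-4 (0.82) and the second fragment of Krt222, a gene of a keratin-like protein (1.00), were the other rises (limma, adjusted p = 0.0453, 0.0394 and 0.0425).

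On chromosome 15 the falls stood on both sides of the cluster's middle, while the outermost baits, Krt80 and Krt18, did not pass. On one side were the hair keratins Krt81, with 15, 21, 20 and 18 interactions in WT and 6, 8, 8 and 6 in the deletion (a fall by 1.15 ± 0.26; limma, adjusted p = 0.0095), and Krt86 (a fall by 0.97 ± 0.21; adjusted p = 0.0075). On the other were Krt77, Krt76, Krt79 and Krt78, which fell by 1.20, 1.04, 1.04 and 0.99 (limma, adjusted p = 0.0158, 0.0103, 0.0101 and 0.00345). Krt78 itself had 42, 33, 43 and 41 interactions in WT and 26, 13, 17 and 15 in the deletion. The inner root sheath genes between them, Krt71 to Krt74, passed in no case.

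**Figure D3:**
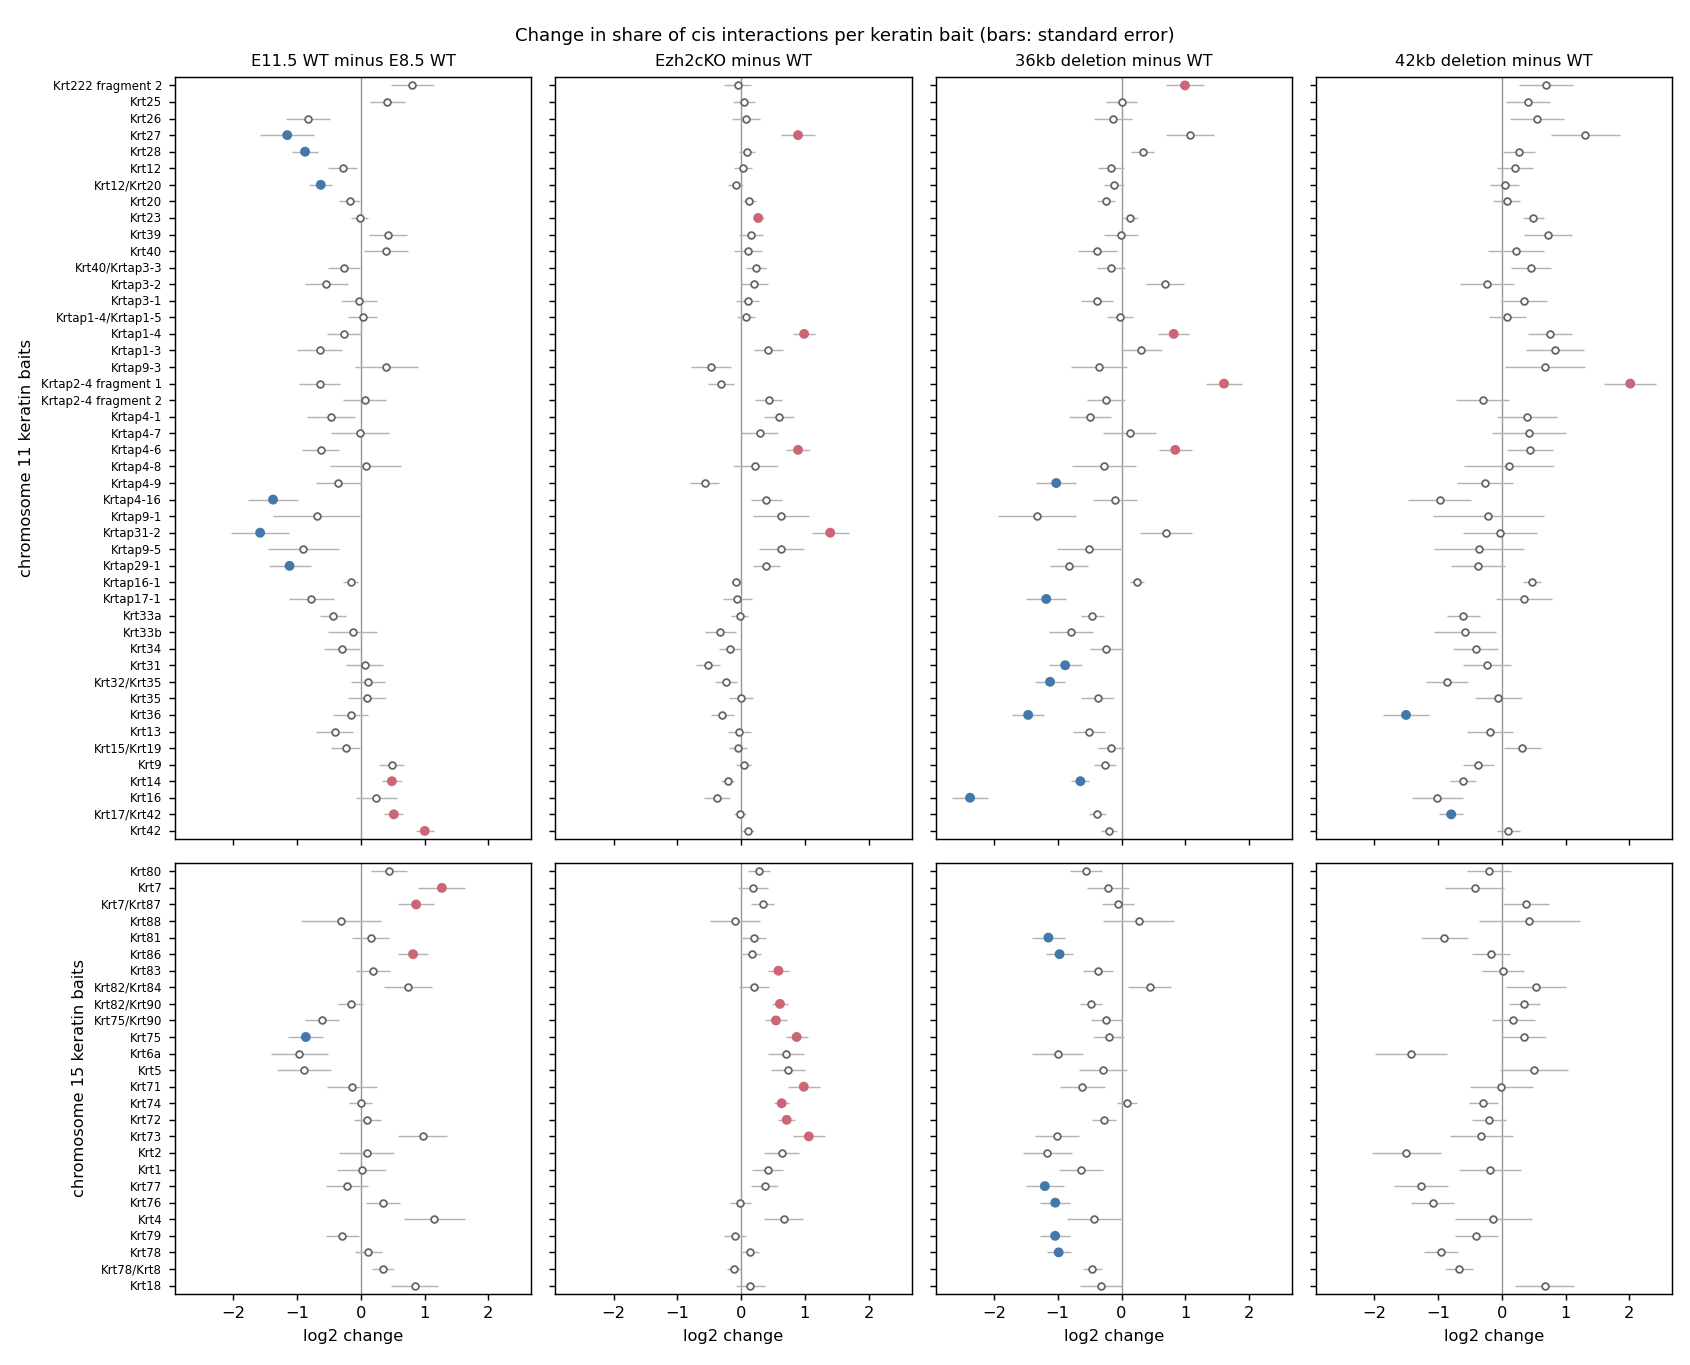
Log2 change in the share of cis interactions for each tested keratin bait (rows, in chromosomal order; 46 on chromosome 11, 26 on chromosome 15) in the 4 comparisons (columns), with the standard error as a bar. Filled points passed an adjusted p of 0.05 (red higher, blue lower). The Ezh2cKO column holds only red points, 8 of them on chromosome 15, and the 36kb column mostly blue ones.

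Single libraries mattered in the 36kb comparison: without Md replicate 1 of the deletion 11 baits were called, and without PA2 replicate 1 of it 10. Here 8 calls held whichever library was left out and in every other setting in which they were tested. They were Krtap2-4 fragment 1, Krt32/Krt35, Krt36, Krt16, Krt81, Krt86, Krt76 and Krt78. Krtap2-4 fragment 1 was tested in 8 of the 10 other settings and Krt81, Krt86 and Krt76 in 9, as they fell under the filter in the rest. Counting a bait at either end ended the calls of Krt31 (-0.18; limma, adjusted p = 0.707), Krt14 (-0.30; 0.192), Krtap17-1 (-0.79; 0.0871), Krtap1-4 (0.25; 0.448) and Krtap4-6 (0.33; 0.306), and a score of 7 also ended that of Krt14 (adjusted p = 0.358). Either-end counting also gave calls absent before. Krtap2-4 fragment 2 (-0.63), Krt80 (-0.72), Krt20 (-0.41) and Krt12/Krt20 (-0.40) fell, and Krtap31-2 (1.20) rose.

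The 42kb deletion, set against WT PA2 with 2 libraries each, gave 3 keratin calls of 74, where 0.948% of all baits were higher and 1.36% lower (limma). Krtap2-4 fragment 1 rose by 2.01 ± 0.41, from 4 and 6 interactions to 22 and 17 (adjusted p = 0.012). Krt36 fell by 1.50 ± 0.35, from 23 and 28 to 5 and 12 (limma, adjusted p = 0.0308), and Krt17/Krt42 by 0.79 ± 0.19, from 55 and 54 to 25 and 32 (adjusted p = 0.0299). Krt16 had 15 and 5 interactions against 21 and 19 (log2 change -1.01 ± 0.40; limma, adjusted p = 0.195). No chromosome 15 bait passed, and 26.9% of the 26 had an unadjusted p under 0.05, against 17.4% of all baits. The 2 deletion comparisons share the PA2 WT libraries, so a like change at Krt36 or Krtap2-4 in both is not independent. Counting a bait at either end ended the calls of Krt36 (-1.06; limma, adjusted p = 0.0855) and Krt17/Krt42 (-0.26; 0.471). None of the 3 calls held in all leave-one-out fits, and none remained when only the 2 PA2 groups were fitted (limma; 19 of 9178 baits called).

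Among the 4 WT tissues no keratin bait passed an F test of any difference (0 of 74, 10 at an unadjusted p under 0.05), where 0.229% of all baits passed (limma). Of those 10, 7 were among the 26 of chromosome 15, and 911 of all 9178 baits were at that level. Krt6a, a type II wound keratin, came nearest, with 2 and 3 interactions in the FNP libraries, 3 and 1 for Mx, 7 and 10 for Md, and 22 and 11 for PA2 (limma, adjusted p = 0.0615). Counting a bait at either end of an interaction brought Krt6a past the threshold (limma, adjusted p = 0.0408).

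Almost all partners of the chromosome 11 and chromosome 15 keratin baits lay in or beside the own cluster. Of the 507 cis interactions of the chromosome 16 keratin baits, 44.8% ended between its outermost baits and 29.6% more than 500 kb beyond them. On chromosome 11, 87.4% of 19686 cis interactions in the 24 libraries ended inside the cluster and 11.2% within 500 kb of it. On chromosome 15, 73.1% of 9727 ended inside and 25.6% within 500 kb. The median distance between the fragments was 613 kb on chromosome 11 and 421 kb on chromosome 15, against 437 kb for all baits. The partner was itself a bait in 23.6% and 11.0% of the cases, against 14.6% for all baits.

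Partners were unevenly placed, with a stretch of few partners inside each cluster. The listing order of bait pairs, mostly with the higher coordinate first, was not corrected for. On chromosome 11, E11.5 WT libraries had 103 ± 8.4 (SD, n = 8) interactions per 100000 with partners 200 to 300 kb from the cluster's start, around Krt20 and Krt23, and 53.1 ± 3.8 at 900 to 1000 kb, around Krt14 and Krt9. Over the Krtap block, 500 to 600 kb from the start, they had 6.5 ± 1.4. On chromosome 15 they had 47.5 ± 4.7 in the 500 kb before the first bait, 50.1 ± 8.6 at 500 to 600 kb, and 4.8 ± 1.6 at 200 to 300 kb.

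The 5 most frequent partners of the chromosome 11 baits were the Krt23 bait (421 interactions), a fragment 1.73 kb past the last bait that overlaps Gm14206 (373), the Krt12/Krt20 bait (358), a second Gm14206 fragment (276) and a fragment in Krt23 (272). On chromosome 15 they were 3 fragments in the long annotated span of Krt78 (270, 245 and 238), a fragment 26.8 kb before the first bait that overlaps no gene (249), and a fragment beside Krt78 that overlaps none (241). All 10 were partners in each of the 24 libraries. Because the bait with the higher coordinate mostly stood first, baits on the left, such as Krt23 and Krt12/Krt20, were more readily listed as partners. None of the 5 on chromosome 15 was a bait.

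Partner positions also differed between groups. Past the right edge of the chromosome 11 cluster, toward Eif1, Gast and Jup, the keratin baits had 42 and 49 interactions in the E8.5 libraries and 71 to 92 in the 8 E11.5 WT libraries. At 700 to 800 kb, near the end of the Krtap block, they had 72.9 ± 1.9 per 100000 at E8.5 and 37.1 ± 3.0 at E11.5. In the 36kb deletion the baits had fewer partners in the first part of the cluster: 44.5 ± 3.8 per 100000 at 100 to 200 kb, against 72.9 ± 1.2 in WT Md and PA2. There the Krt23 fragment was a partner of keratin baits 4 to 15 times (mean 9.25) against 20 to 22 times in WT, and the Krt12/Krt20 fragment 4 to 8 times against 16 to 18. In the 42kb deletion those fragments were partners 7 and 11 times, and 9 times in both libraries, against 20 and 21 times, and 16 times in both, in WT PA2. Nothing was tested on partner counts.

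**Figure D4:**
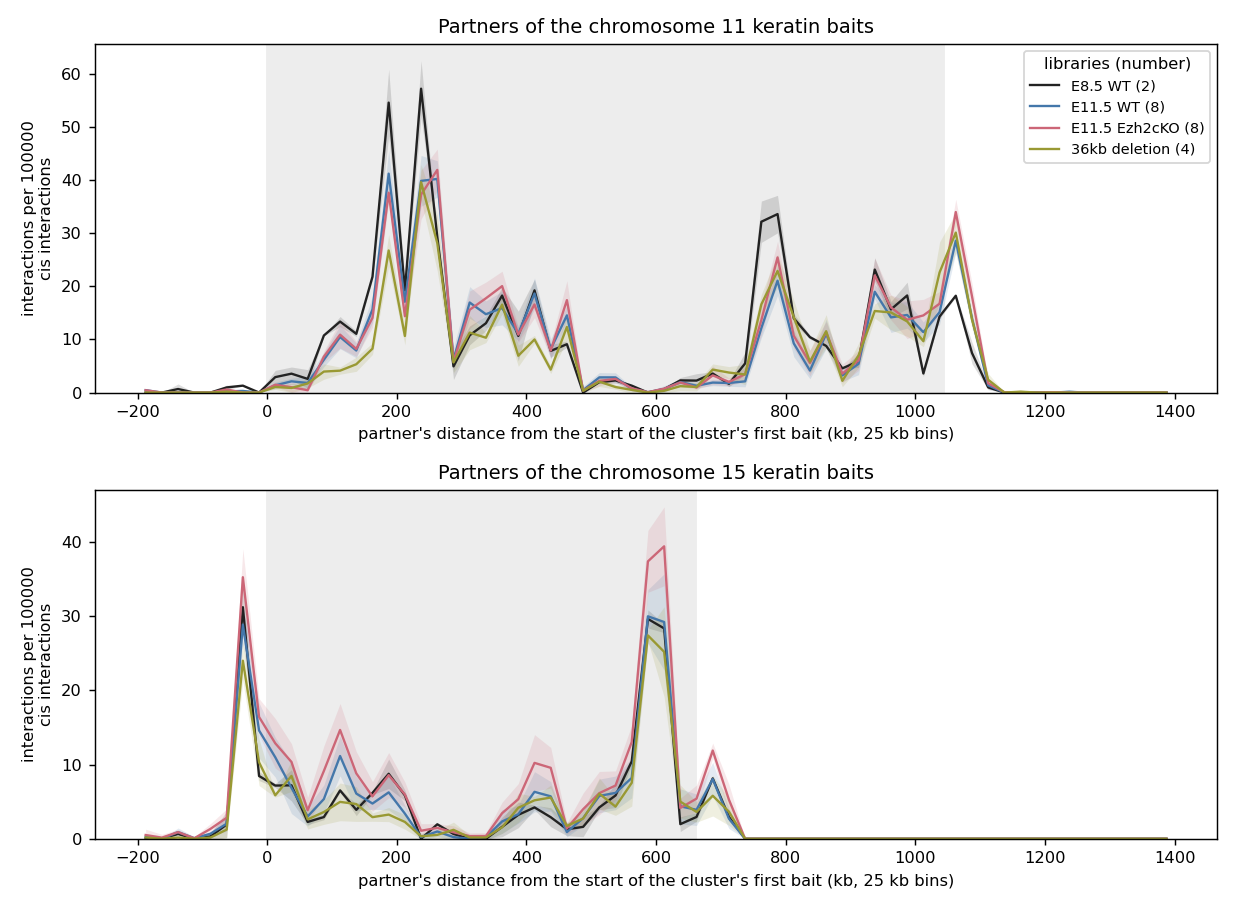
Where the partners of the keratin baits lay, as interactions per 100000 cis interactions in 25 kb bins of distance from the first bait of the cluster on chromosome 11 (top) and chromosome 15 (bottom). Lines are means over the libraries of a class (number in the key), bands are 1 SD, and the grey field is the cluster. The E8.5 line stands highest at 100 to 300 kb and 700 to 800 kb on chromosome 11 and lowest past the cluster's end, and the Ezh2cKO line is highest over most of chromosome 15.

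Interactions gained or lost in Ezh2cKO against WT were counted as pairs present in at least 7 of 8 libraries of one genotype and at most 1 of 8 of the other. Of 510 keratin pairs seen in at least 7 libraries of either genotype, 7 were gained and 1 was lost, where 1.42% of such pairs of all baits were gained and 2.09% lost. Chromosome 15 had 6 of the gains among 163 pairs (3.68%) and no loss. Of the 6, 4 joined Krt80, Krt75/Krt90, Krt71 and Krt73 to fragments in the Krt78 span. Krt80, at the far end of the cluster, met the fragment from 101984467 to 101985206 over 614 kb in 8 of 8 Ezh2cKO libraries and 1 of 8 WT libraries. The same pair was in 1 of 2 E8.5 libraries, 2 of 4 of the 36kb deletion and 2 of 2 of the 42kb deletion, and the Krt75/Krt90 pair with that fragment in 0 of 2, 2 of 4 and 2 of 2. Krt72 met a fragment just before Krt78 (101941134 to 101942842) in 8 of 8 and 1 of 8, and Krt74 met the Krt75 bait in 7 of 8 and 1 of 8. On chromosome 11, Krt17/Krt42 gained a fragment 699 kb away (99562131 to 99563259), and the Krt36 to Krt28 pair was lost, seen in 7 of 8 WT and 1 of 8 Ezh2cKO libraries. With a wider rule (at least 6 against at most 2) chromosome 15 had 36 gains and 5 losses, and chromosome 11 had 19 and 7.

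The genes around the chromosome 15 cluster had no call in Ezh2cKO. Of 24 tested non-keratin baits inside or within 500 kb of the chromosome 15 cluster, 0 passed in Ezh2cKO (limma; 41.7% at an unadjusted p under 0.05, against 24.7% of all baits), with a median log2 change of -0.19 beside 0.39 for the keratin baits. In the stage comparison 10 of these 24 rose, where 20.2% of all baits did, and none fell. In the 36kb deletion 4 of the 24 fell, where 5.10% of all baits did, and none rose. Their median log2 change there was -0.45, with 19 of 24 below 0, beside -0.47 for the chromosome 15 keratin baits. Around chromosome 11, 3 of 39 neighbours rose and 1 fell in Ezh2cKO, where 5.08% and 4.85% of all baits did. In the stage comparison 7 of the 39 rose and 7 fell, where 20.2% and 9.47% of all baits did. In the 36kb deletion 3 rose and 3 fell, where 4.63% and 5.10% did. The neighbours' median log2 changes were -0.20 (stage) and -0.15 (36kb), beside -0.20 and -0.24 for the chromosome 11 keratin baits. Whether keratin baits differ from their neighbours was not tested.

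Other intermediate filament genes and keratin regulators were counted in the same fits, where 5.08% of all baits rose and 4.85% fell in Ezh2cKO. In the stage comparison 20.2% of all baits rose and 9.47% fell, and in the 36kb deletion 4.63% rose and 5.10% fell. Of 16 tested baits of other intermediate filament genes 1 rose in Ezh2cKO, that of Prph, the neuronal filament gene peripherin (0.69 ± 0.18; limma, adjusted p = 0.0218), and none fell. Between E8.5 and E11.5, 3 of the 16 rose and 1 fell, near or below the shares of all baits. Prph, the lens filament gene Bfsp1 and the lamin gene Lmna rose by 1.37, 0.98 and 0.92, and the neuronal gene Ina fell by 1.00 (limma, adjusted p = 0.00137, 0.0155, 0.0495 and 0.0158). In the 36kb deletion 2 of the 16 fell and none rose. The lamin gene Lmnb2 fell by 1.65 and Des, the muscle filament gene desmin, by 1.34 (limma, adjusted p = 0.00608 and 0.0351). Of 13 tested baits of keratin partners and regulators, Dlx3, a homeobox gene of skin appendages, rose by 0.73 ± 0.15 in Ezh2cKO, while Hoxc13, a regulator of hair keratins, fell by 0.73 ± 0.09 and Gata3, of the inner root sheath, by 0.72 ± 0.14 (limma, adjusted p = 0.0028, 1.14e-05 and 0.00164). Dlx3, alone of the 13, fell in the 36kb deletion, by 1.14 ± 0.21 (limma, adjusted p = 0.00234), and none rose. Trps1, a hair and skeletal regulator, had 0 interactions in both E8.5 libraries and 11.0 ± 5.8 (SD, n = 8) in E11.5 WT (limma, adjusted p = 1.43e-07), and Gata3 rose by 0.69 ± 0.21 (adjusted p = 0.0188). These were the 2 of the 13 that rose between the stages, and none fell.

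Most Krtap baits of chromosome 16 formed few interactions. Krtap19-1, the one tested, had 4 to 12 in every library (mean 8.5), Krtap6-1 averaged 4.08, and the other 16 averaged at most 1.21. Together they had 30 and 35 cis interactions in the E8.5 libraries, or 0.0211% ± 0.0015 of the total, and 0.0114% ± 0.0013 in the 8 E11.5 WT libraries, which lay below both E8.5 libraries. Interactions with another chromosome made up 12.1% of all interactions of the chromosome 16 keratin baits, against 3.53% for all baits. For the chromosome 11 and chromosome 15 keratin baits they made up 0.70% and 1.13%. In all, 332 had a keratin bait first, and none joined 2 keratin baits. No bait of the chromosome 11 cluster was thus listed with a bait of the chromosome 15 cluster in any library. Partners in the other cluster that were not baits were not counted. Of 313 distinct pairs between chromosomes, 298 were seen in 1 library.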

How the data were processed

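Each of the 24 libraries came as 1 deposited list of fragment pairs with a score, per the file names the output of CHiCAGO, which the authors' file holds only from a score of 5 upward. The genome build was GRCm38 (mm10) per the submitters' processing notes. Not given in the sources used here are the aligner, the caller's version and settings. Cis pairs were counted by the bait in first position, since a library lists each pair once, in an order that can differ between libraries. The order was mostly fixed: 87.9% of cis interactions joining 2 baits had the higher coordinate first. Of 138452 distinct bait pairs, 6175 were listed in both orders. An interaction between 2 baits thus mostly counted for the one with the higher coordinate. Counts plus 0.5 were divided by the library's cis total, logged (log2) and modelled as 12 group means by limma 3.58.1 under R 4.3.3 (variances moderated with a mean trend, Benjamini-Hochberg over 9178 baits, threshold 0.05). The fit was also run on simulated counts drawn independently for each bait. That run cannot speak for baits of a cluster, which share partners. Tables were made with Python 3.11.15 and pandas 2.3.3. Named baits are up to 15 past the threshold in each comparison, a fixed list of well-known keratins, the 5 baits and 5 partners with most interactions per cluster, up to 5 baits a comparison of the other lists, and the pairs gained or lost. Members, lists and tests were chosen with earlier results of these data known. Gene ends and promoters came from RefSeq (GRCm38.p6). Replicate numbers were not taken as pairs. Each library has its own batch label, so batch could not be fitted. One PA2 36kb library carries another library's title in its genotype field and was grouped by its own title. Alternatives tried were other pseudocounts, filters, scalings, a score of 7, counting at either end, stricter membership and leaving out each library.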

Additional observations from a re-analysis of the deposited data

Results flagged for a closer look

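At the bait of the hair keratin Krt82 with Krt90 (chromosome 15, 101550034 to 101551594) the 36kb deletion libraries of Md and PA2 moved in opposite directions. In Md it had 7 and 7 interactions in the deletion and 22 and 23 in WT, a log2 change of -1.44. In PA2 it had 20 and 25 in the deletion and 20 and 17 in WT, a log2 change of 0.48. The difference between the tissues was not tested.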

How the results depend on the processing

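The alternatives were run for the 47 keratin bait results past the threshold, and none of these changed direction. With other settings than a left-out library, 384 of 435 bait results kept their call and 51 lost it; with 1 library left out, 375 of 496 kept it and 121 lost it. Requiring a score of 7 left fewer interactions and 28 keratin baits tested, and called 7 in the stage comparison (14 before), 3 in Ezh2cKO (13), 6 in the 36kb deletion (17) and 1 in the 42kb deletion (3). It moved the log2 difference of the chromosome 11 cluster in the 36kb deletion from -0.22 to -0.35, that of chromosome 15 in Ezh2cKO from 0.42 to 0.69, and the share of partners inside the cluster to 82.1% and 66.3%. Counting a bait at either end called 1 bait in the 42kb deletion and 1 among the WT tissues, and fitting only the compared groups called 0 in the 42kb deletion; the cause was not tested. With 1 library left out, the calls ranged from 6 to 15 (stage), 9 to 13 (Ezh2cKO), 10 to 16 (36kb), 0 to 3 (42kb) and 0 to 1 (WT tissues). The 42kb calls fell to 0 without PA2 WT replicate 1, and to 1 without PA2 WT replicate 2 or 42kb replicate 1; the WT tissue call appeared without Mx WT replicate 1. Pairs gained and lost in Ezh2cKO numbered 55 and 12 at 6 against 2 libraries and 0 and 0 at 8 against 0, and the lost pair was gone when only baits holding a gene end were kept. The replicate numbers were not taken as pairs: correlations of same-numbered replicates ran from -0.10 to 0.15 over 38 pairs of groups. The highest was between Md and PA2 of the 36kb deletion, where replicate 1 had the lower share in both tissues and both clusters. With the replicate number as a block, 13, 12, 16, 3 and 0 baits were called in the same order. The chromosome 11 difference in the 42kb deletion (log2 0.02) was -0.04 with a score of 7 and -0.03 without baits shared with other genes. Read depth is unknown.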
